A study of Ananas comosus with 3 samples.

Results

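The genes described here belong to the methionine cycle, its salvage branch, polyamine synthesis and the first committed step of ethylene synthesis. They were found by contig number or by enzyme keywords in the deposited gene names, with names of methyltransferases left out. The search gave 6 contigs, each an assembled transcript sequence, represented by 11 cDNA clones among 9278 on the array. After clones of a contig were averaged, the array held 7773 features with values on at least 2 slides, and all 6 contigs were among them. The contig numbers deposited for newly sequenced clones, among spots past the study's 2xSD filter, added 0 clones to these contigs. No deposited name on the clones contained ACC oxidase or spermidine, so these steps were not analysed here.

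S-adenosylmethionine is made from methionine and is the main methyl donor of the cell. It is also the shared precursor of ethylene, through 1-aminocyclopropane-1-carboxylate (ACC), and of the polyamines spermidine and spermine, through its decarboxylated form. Both routes release methylthioadenosine, whose sulfur group is returned to methionine by the salvage branch known as the Yang cycle. Climacteric fruit ripen with a burst of ethylene, which pineapple, a non-climacteric fruit, lacks.

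Pineapple (Ananas comosus) fruit of the cultivar Smooth Cayenne, clone C10, were field grown and graded by appearance as mature green or mature yellow. RNA from the central flesh of both stages was labelled with Cy3 or Cy5 and hybridised together on each of 3 slides, and no treatment or transgene was involved. Yellow fruit carried Cy3 on replicates 1 and 3 and Cy5 on replicate 2, so any effect of the dye on a clone enters replicate 2 with the opposite sign. Neither the labels nor the methods state which slides came from separate fruit, so SDs and p-values measure the spread between hybridizations, which may be technical.

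Each clone was spotted as a pair. The 33 pairs of the 11 clones held 0 spots marked abnormal, and the log2 ratios of paired spots differed by 0.00276 to 0.35 with a median of 0.068. Across all features, which are not independent replicates, r was 0.67 between the slides with the same dye arrangement and 0.41 and 0.37 between replicate 2 and the others. Between 83.4% and 92.2% of clone spots on a slide rose above a limit set from the median of the blank spots plus 2 robust SD, which was chosen after seeing the data. With a limit of 2 plain SD the share was 22.0%, 34.7% and 50.2% on replicates 1, 2 and 3, and only 3 of the 6 contigs, S-adenosylmethionine decarboxylase, submergence induced protein 2A and contig 1651, kept values on at least 2 slides. As a check of the fruit label, 49.3% to 57.9% of the spots named metallothionein, a class of transcript abundant in ripening fruit, were among the brightest 10% of clone spots in each channel. Spots named bromelain, the fruit protease, numbered 8 to 10 on a slide and were mostly dim, and 0 spots carried a chlorophyll-binding or photosystem name. Since whole flesh was used, fewer cells of a type and less RNA per cell cannot be told apart.

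Of the 6 contigs, 0 were called by limma (an adjusted p under 0.05 together with at least a 1.5-fold difference), beside 0.129% of all features. At an unadjusted p under 0.05 there were 2, the contigs of S-adenosylmethionine decarboxylase and submergence induced protein 2A, both higher in yellow fruit, beside 8.95% of all features, or 5.43% counting those higher in yellow. The search named these 2 by contig number, and the paper lists both as up-regulated past 1.5-fold from the same 3 slides under its own processing. Their count is therefore not independent of that report. None of the 6 contigs reached 1.5-fold here, which 5.24% of all features did. Ratios were above 0 on all 3 slides for 3 contigs, these 2 and contig 1651, an S-adenosylmethionine synthetase, beside 18.3% of the features measured on 3 slides. The median log2 ratio of yellow over green was 0.13 for the 6 contigs and 0.0075 for all features, and the median SD between slides was 0.22 and 0.14. With each clone as its own feature, limma called 0 of the 11 clones, beside 2.39% of all clones. The methionine synthase and ACC synthase contigs had mean ratios of -0.029 and -0.0059.

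**Figure D1:**
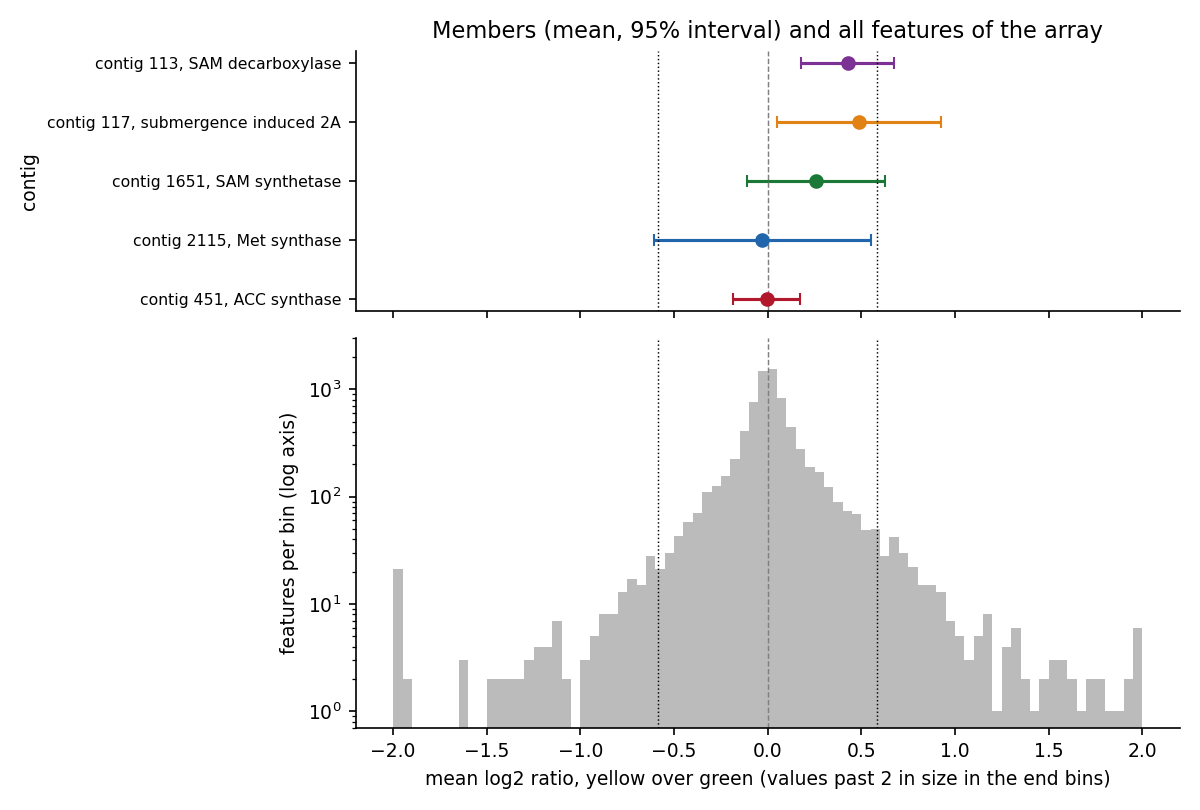
Top, the mean log2 ratio of yellow over green for the 5 contigs above the blank spots with limma's 95% interval (SAM, S-adenosylmethionine; Met, methionine; ACC, 1-aminocyclopropane-1-carboxylate); bottom, the number of features per ratio bin on a log axis, with dotted lines at 1.5-fold. The intervals of the decarboxylase and of submergence induced protein 2A lie above 0, those of the other 3 contigs include 0, and every mean lies within the 1.5-fold lines.

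S-adenosylmethionine decarboxylase commits S-adenosylmethionine to polyamines by supplying the aminopropyl groups of spermidine and spermine. The enzyme was represented by 3 clones, and contig 113's log2 ratios were 0.61, 0.36 and 0.31 on replicates 1, 2 and 3. All slides showed higher signal in yellow fruit, and the value of 0.43 ± 0.16 (SD, n = 3) is a 1.34-fold difference. The 95% interval of limma ran from 1.13-fold to 1.6-fold, with an unadjusted p of 0.00966 and an adjusted p of 0.340 (Benjamini-Hochberg). The mean exceeded that of 94.4% of all features, and the contig was number 221 of them in order of p. An offset of 50, added to both channels before the log, draws ratios of dim spots toward 0. Median signals of all clone spots were 31, 67 and 27.9 in yellow fruit and 27, 116 and 15.8 in green fruit. How far signal strength entered this rank was not tested.

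The 3 clones of the decarboxylase gave different ratios. Clone JBW094E09 had ratios of 0.64, 0.83 and 0.55 (mean 0.67 ± 0.14, 1.59-fold), the highest of the 3 clones and higher in yellow on each slide. With every clone tested as its own feature, limma gave it an unadjusted p of 0.00191 and an adjusted p of 0.0678. Clone JBW041B03 gave 0.91, 0.40 and 0.36 (mean 0.55 ± 0.31, 1.47-fold), again with no slide below 0. Clone JBW039G01 gave 0.29, -0.14 and 0.012 (mean 0.053 ± 0.22, 1.04-fold), so its slides did not share a direction. In total 8 of 9 clone values of the decarboxylase were above 0, but clones on the same slides are not independent replicates.

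The signals behind these ratios differed in strength. Over local background, JBW094E09 read 564, 1938 and 280.3 intensity units in yellow fruit and 228.5, 1761.5 and 102 in green fruit. JBW039G01 read 66, 37 and 13.6 in yellow and 32.5, 87.5 and 6.93 in green. The offset added to both channels before the log draws ratios of such dim spots toward 0. The low mean of JBW039G01 therefore does not show that yellow and green fruit were level on it. How much of its gap to the other clones came from the offset was not tested. None of the 6 spots of JBW039G01 passed the 2xSD test, whereas 12 of the 18 spots of the contig did. Without that clone the contig's mean was 0.61, or 1.53-fold, with an unadjusted p of 0.00273 and an adjusted p of 0.195 by limma. Without JBW041B03 it was 0.36 (adjusted p = 0.275 by limma), and without JBW094E09 it was 0.30 (unadjusted p = 0.0714, adjusted p = 0.580 by limma). None of the 3 omissions led to a call, and since each clone mean was above 0, none could turn the direction.

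**Figure D2:**
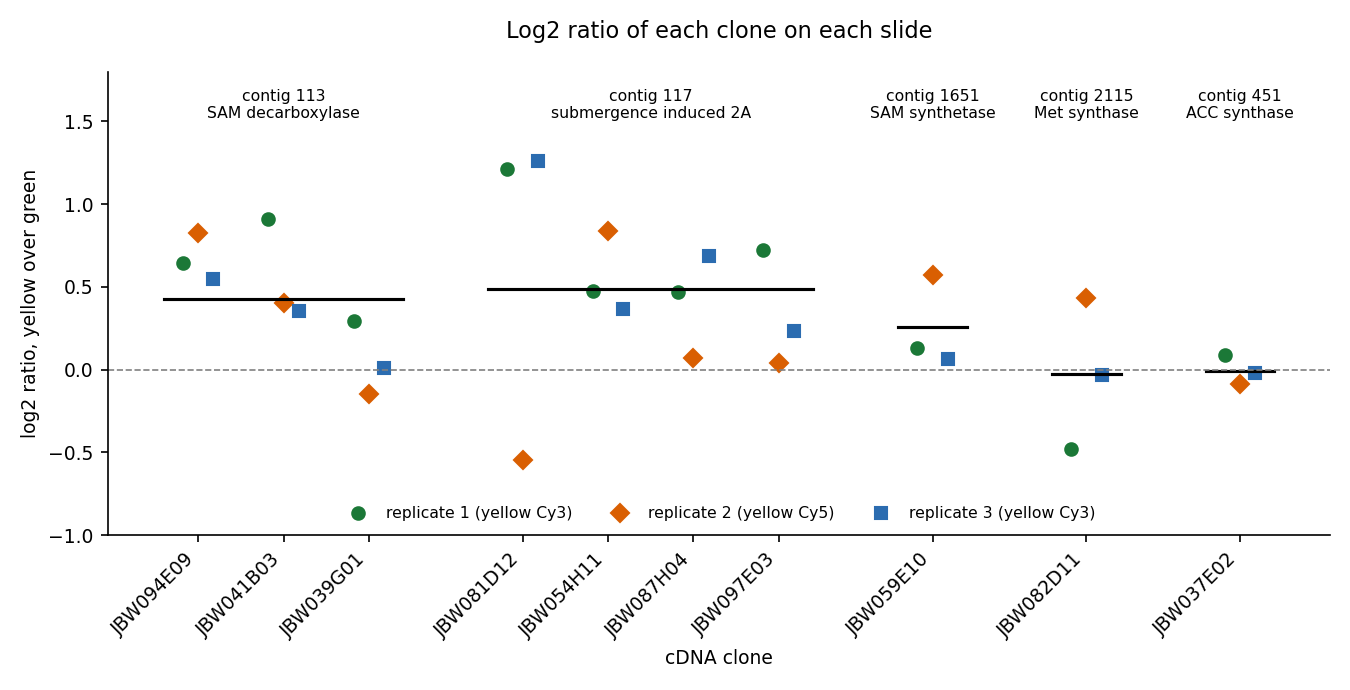
Log2 ratio of yellow over green (vertical axis) of each of the 10 clones above the blank spots (horizontal axis) on replicates 1, 2 and 3, with a bar at the contig mean (SAM, S-adenosylmethionine; Met, methionine; ACC, 1-aminocyclopropane-1-carboxylate). Of the 30 points, which are not independent replicates, 24 are above 0. JBW081D12 of submergence induced protein 2A lies at 1.21 and 1.26 on replicates 1 and 3 and at -0.55 on replicate 2.

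Submergence induced protein 2A is contig 117's deposited name, abbreviated here to 2A, and the paper matches it to an Arabidopsis acireductone dioxygenase. Acireductone dioxygenase makes the keto acid precursor of methionine late in the Yang cycle. The contig's log2 ratios were 0.72, 0.10 and 0.64 on replicates 1, 2 and 3. Every slide was above 0, but replicate 2 was close to it and read -0.10 when loess was replaced by median centring and -0.065 in the deposited table of processed values. With a dye term in the fit the 2A mean was 0.39, or 1.31-fold, and the decarboxylase mean 0.41. Without that term, the 2A mean of 0.49 ± 0.34 (SD, n = 3) is a 1.40-fold difference with a 95% interval from 1.03-fold to 1.90-fold. By limma the unadjusted p was 0.0376 and the adjusted p 0.529, and the mean exceeded that of 95.6% of all features. The part of signal strength in this rank was not tested either.

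Of the 12 clone values of 2A, again not independent replicates, 11 were above 0, and the exception was JBW081D12 on replicate 2. This clone gave ratios of 1.21, -0.55 and 1.26 (mean 0.64 ± 1.03), opposite in sign between the dye arrangements. Its mean on replicates 1 and 3 exceeded replicate 2 by 1.79, a gap greater in size than that of 99.1% of 9078 clones measured on all slides, whose median size was 0.19. Its signals were 781, 554.5 and 3352 in yellow fruit and 204.5, 1295.5 and 1385 in green fruit. Green was therefore the brighter channel on replicate 2 alone, where green fruit carried Cy3. Over all clone spots of that slide green was also the brighter channel, with a median signal of 116 in green and 67 in yellow. The part of the dye in this clone's ratio was not tested.

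The other 3 clones of 2A were above 0 on every slide. JBW054H11 gave 0.48, 0.84 and 0.36 (mean 0.56 ± 0.25, 1.47-fold), with an unadjusted p of 0.0126 and an adjusted p of 0.214 by limma as its own feature. JBW087H04 gave 0.47, 0.067 and 0.69 (mean 0.41 ± 0.31, 1.33-fold), and JBW097E03 gave 0.72, 0.041 and 0.24 (mean 0.33 ± 0.35, 1.26-fold). Both of these were near 0 on replicate 2 only. Of the contig's 24 spots 23 passed the 2xSD test. Without JBW081D12 the contig's mean was 0.43, its unadjusted p 0.00491 and its adjusted p 0.256 by limma. Without JBW054H11 the mean was 0.46 and the unadjusted p 0.123 (adjusted p 0.637 by limma), so the nominal p depended on which clone was kept. Since each clone mean was above 0, leaving out a clone could not turn the direction.

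**Figure D3:**
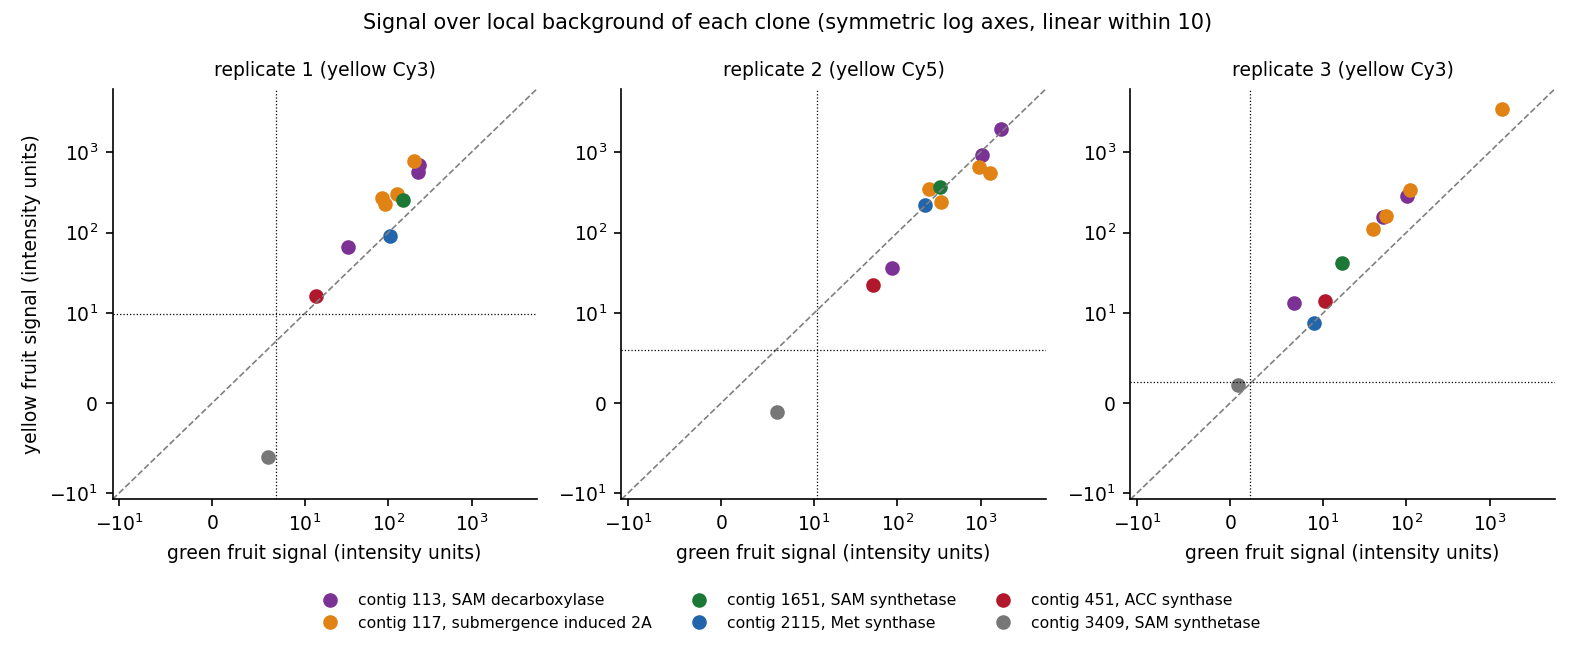
Signal over local background in yellow fruit (vertical axis) against green fruit (horizontal axis) in intensity units, on symmetric log axes with 1 point per clone and 1 panel per slide; dashed lines mark equal signal and dotted lines the limit set from the blank spots. The clone of contig 3409 lies below both limits on every slide, and clones of the decarboxylase and of submergence induced protein 2A reach 1938 and 3352 units in yellow fruit.

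S-adenosylmethionine synthetase joins methionine and ATP and so feeds both branches. Contig 1651, with the deposited name putative S-adenosylmethionine synthetase, is represented by clone JBW059E10. Its ratios were 0.13, 0.57 and 0.065 on replicates 1, 2 and 3, all above 0 and highest where yellow fruit carried Cy5. With median centring in place of loess they were 0.48, 0.41 and 0.12, and without normalization 0.63, 0.091 and 0.29. The slide with the highest ratio thus depended on the normalization. After loess the mean of 0.26 ± 0.28 (SD, n = 3), 1.19-fold, was within the spread of the slides and fell to 0.098 without replicate 2. The 95% interval of the log2 ratio from all 3 slides ran from -0.11 to 0.63, with an unadjusted p of 0.122 and an adjusted p of 0.637 by limma. Signals were 257, 368 and 42.2 in yellow fruit and 149.5, 329 and 17.0 in green fruit. Of its 6 spots 4 passed the 2xSD test, with 0 on replicate 3. The offset draws the ratio of that dim slide toward 0, and with plain background subtraction it read 0.45. The other synthetase, contig 3409, was not above the blank spots in either channel of any slide. Its signals were -6, -1 and 2.06 in yellow fruit, where the limits were 9.90, 5.93 and 2.32, and 6, 6 and 0.884 in green fruit, where the limits were 6.93, 10.9 and 2.18. No fold is given for it.

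Cobalamin-independent methionine synthase, contig 2115, transfers a methyl group from folate to homocysteine to make methionine. Its clone JBW082D11 gave ratios of -0.48, 0.43 and -0.036. The slides did not share a direction, and the mean of -0.029 ± 0.46 (SD, n = 3) had a 95% interval from -0.61 to 0.55, with an unadjusted p of 0.893 and an adjusted p of 0.984 by limma. The interval reaches 1.46-fold higher in yellow fruit and past 1.5-fold lower, so differences within that range were not excluded. With plain background subtraction the mean was -0.29, and replicate 3, where both signals were low, moved from -0.036 to -0.73. Signals were 90, 219.5 and 8.91 in yellow fruit and 106, 213.5 and 9.11 in green fruit.

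Adenosylhomocysteinase, contig 61, splits S-adenosylhomocysteine left by methylation into homocysteine and adenosine. Its name does not hold the keyword adenosylhomocysteine, so it is not counted among the 6 contigs and is described because it closes the cycle. Its 4 clones averaged -0.020, 0.45 and -0.063 on replicates 1, 2 and 3. This average was higher in yellow fruit on replicate 2 alone, with a mean of 0.12 ± 0.28 (SD, n = 3), an unadjusted p of 0.409 and an adjusted p of 0.861 by limma. The clones differed, from JBW054C02 with the highest mean at 0.41, 0.73 and 0.10 to JBW060C07 with the lowest at -0.40, 0.56 and -0.31.

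ACC synthase, contig 451, is the step that commits S-adenosylmethionine to ethylene. Its clone JBW037E02 gave ratios of 0.090, -0.085 and -0.022, near 0 on every slide. The mean of -0.0059 ± 0.089 (SD, n = 3) had a 95% interval from -0.19 to 0.17, with an unadjusted p of 0.929 and an adjusted p of 0.987 by limma. Signals were low, at 16.5, 22.5 and 14.3 in yellow fruit and 13.5, 51.5 and 10.7 in green fruit, and 0 of 6 spots passed the 2xSD test. The offset of 50 added to both channels before the log draws ratios of spots this dim toward 0. The narrow interval therefore does not show that the transcript was level.

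The contigs were set against each other slide by slide in 5 pairs, with a two-sided exact permutation of the signs of the differences. On 3 slides this test cannot go below an exact p of 0.25. The decarboxylase exceeded methionine synthase by 1.095 and 0.34 on replicates 1 and 3 and fell short by -0.069 on replicate 2, a mean difference of 0.46 ± 0.59 (exact p = 0.5, adjusted 0.625). The 2A contig exceeded it by 0.51 ± 0.78 (exact p = 0.5, adjusted 0.625). The difference between the decarboxylase and 2A was -0.059 ± 0.30 (exact p = 0.75, adjusted 0.75). Against contig 1651 they differed by 0.17 ± 0.35 and 0.23 ± 0.61 (exact p = 0.5, adjusted 0.625 for both). No pair was separated beyond the spread of the slides.

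Neighbouring pathways were read from the same fit, through keywords in the deposited names. Of their 27 features, limma called 0, and 3 had an unadjusted p under 0.05, all 3 higher in yellow fruit, or 11.1%, beside 8.95% of all features and 5.43% higher in yellow. All 3 were in the list for sulfur and aspartate supply, which provides the sulfur and the carbon skeleton of methionine. In that list 10 of 12 features had a mean above 0, beside 53.2% of all features, and the median log2 ratio was 0.19. The paper lists contigs 3189, 1009 and 3350 of this list as up-regulated from the same slides. The list was also chosen with earlier results known, so its count is not independent of that report. The range ran from -0.16 for contig 3052, an ATP sulfurylase, to 0.94 for contig 3189, a cysteine synthase.

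Cysteine synthase, which fixes sulfide into cysteine, had ratios of 0.74, 0.98 and 1.098 on contig 3189. It was higher on every slide, and limma gave an unadjusted p of 0.000826 and an adjusted p of 0.125. The other cysteine synthase contigs, named after their values were seen, did not share one direction. Contig 3190 gave 0.54, 0.081 and 0.21 (mean 0.28), and contig 1084 gave 0.13, -0.60 and 0.041 (mean -0.14). The other features with an unadjusted p under 0.05, named after their values were seen, belong to sulfate activation, the entry step of sulfur assimilation. Contig 625, ATP sulfurylase, gave 0.72, 0.33 and 0.32 (mean 0.46, unadjusted p 0.0165, adjusted p 0.408 by limma). Contig 660, with the deposited name sulfate adenylyltransferase, gave 0.31, 0.30 and 0.29 (mean 0.30 ± 0.011, unadjusted p 0.00498, adjusted p 0.260 by limma). The average of contig 660 varied least between slides of these 3, but not all of its clones were as even. JBW041D02 gave 0.64, 0.10 and 0.090, JBW059D06 gave -0.043, 0.44 and 0.38, and JBW087G07 gave 0.34, 0.35 and 0.40. Contig 3052, named for the same activity, gave 0.0047, -0.51 and 0.015, so its mean below 0 came from replicate 2 and was 0.010 without it.

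**Figure D4:**
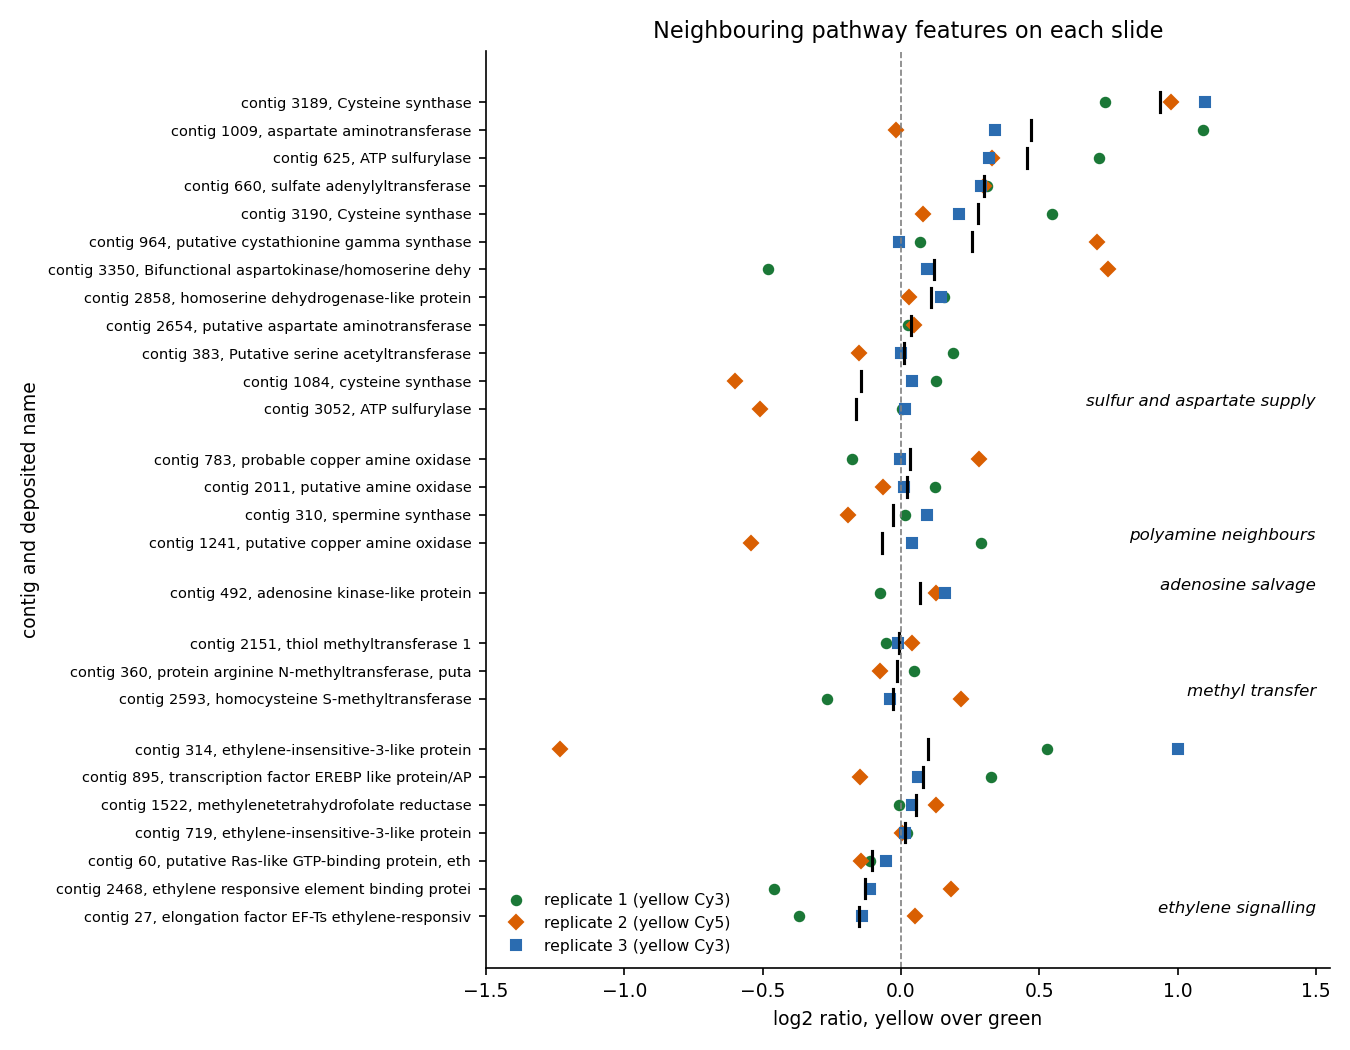
Log2 ratio of yellow over green (horizontal axis) of the 27 neighbouring features (vertical axis) on replicates 1, 2 and 3, grouped by list, with a bar at each mean. Contigs 3189, 625 and 660 of the sulfur and aspartate list lie above 0 on every slide, and contig 314 lies at -1.23 on replicate 2 and at 0.53 and 1.0 on replicates 1 and 3.

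The 4 polyamine neighbours had a median of -0.0019, from -0.070 for contig 1241 to 0.034 for contig 783, both named copper amine oxidase, enzymes that oxidise polyamines. Spermine synthase, contig 310, which uses the product of S-adenosylmethionine decarboxylase, had a mean of -0.027. The single adenosine salvage feature, contig 492, an adenosine kinase-like protein, had a mean of 0.070. The 3 methyl transfer features ran from -0.029 for contig 2593, homocysteine S-methyltransferase, to -0.0073 for contig 2151, a thiol methyltransferase. None of these 8 features had an unadjusted p under 0.05, and none of the lists had a median as far from 0 as the sulfur and aspartate list.

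The 7 features matched as ethylene signalling had a median of 0.014. They include methylenetetrahydrofolate reductase, contig 1522, which matched only because its name contains the letters ethylene. Without it the middle means are 0.014 for contig 719 and -0.10 for contig 60, which puts the median below 0. The lowest mean was -0.15, for contig 27, an elongation factor EF-Ts described as ethylene-responsive, whose 2 clones had means of 0.037 and -0.34. That mean ran from -0.045 without replicate 1 to -0.64 with the mean intensities of the 2xSD spots (adjusted p 0.272 by limma). The highest was 0.099 ± 1.18 (SD, n = 3) for contig 314, an ethylene-insensitive-3-like protein, the family of transcription factors that act on ethylene response genes. Its ratios were 0.53, -1.23 and 1.0, and its mean has no stable sign.

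The means of the decarboxylase and 2A contigs stayed above 0 under every processing tried. The decarboxylase ranged from 0.28 without background correction to 0.97 in the deposited table of processed values, and 2A from 0.26 to 0.77 under the same pair of settings. Neither contig was called under any of them, and the lowest adjusted p was 0.0678 for the decarboxylase, that of its clone JBW094E09 as its own feature, and 0.0784 for 2A, with a dye term in the limma fit. Before loess normalization the ratios of the decarboxylase were 1.01, -0.22 and 0.63 and those of 2A were 1.20, -0.42 and 0.91, while the medians of all features were 0.14, -0.31 and 0.18. Both contigs thus read below 0 on replicate 2 before normalization. After median centring the decarboxylase read 0.10 there and 2A -0.10, so the direction of 2A on that slide depended on the normalization.

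**Figure D5:**
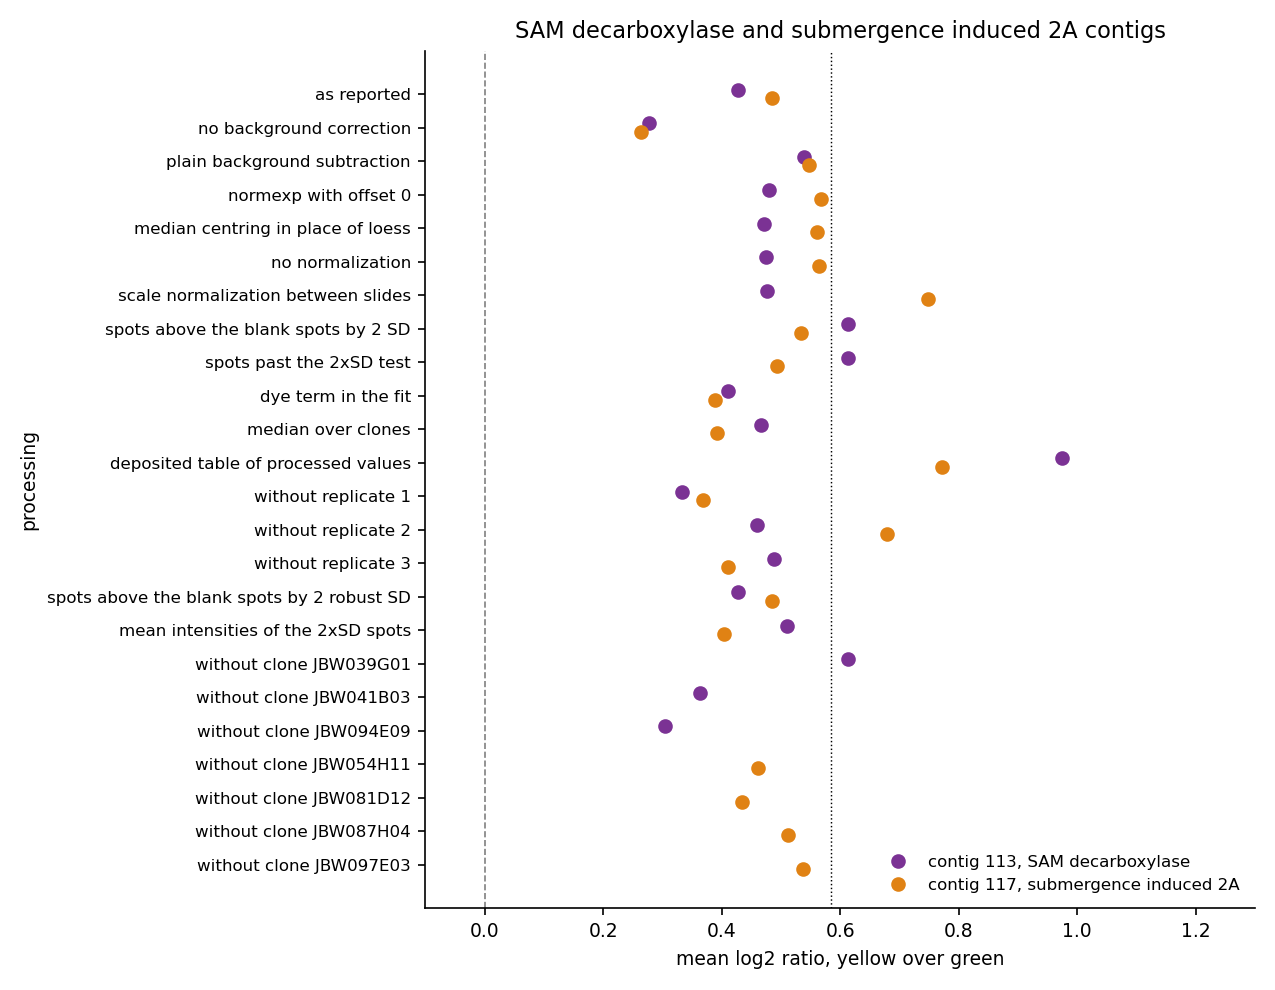
Mean log2 ratio of yellow over green (horizontal axis) of the contigs of S-adenosylmethionine (SAM) decarboxylase and submergence induced protein 2A under each processing, replicate omission and clone omission (vertical axis), with a dotted line at 1.5-fold. All points lie above 0, from 0.26 to 0.97.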

How the data were processed

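The authors deposited scanner intensity values of both channels and of local background for every spot, not normalized, as medians for replicates 1 and 2 and means for replicate 3. A second set of files held mean intensity values of spots past the 2xSD test. A table of processed contig values that the authors deposited held a score, namely the ratio or, below 1, minus its reciprocal, described in the methods as LOWESS-normalized Cy3 over Cy5. Set against the scanner values its columns correlated at 0.84, -0.86 and 0.81, so replicate 2 was turned. Column medians on the log2 scale were 0.14, -0.059 and 1.03 as deposited, and how they were centred is unknown.

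In R 4.3.3 with limma 3.58.1, abnormal spots were dropped. Background was corrected by normexp (offset 50), and intensities were loess-normalized within slides, with weight on clone spots only. Ratios were turned to yellow over green, and spots were averaged per clone, then clones per contig. Features needed 2 slides. limma was fitted with an intercept (prior degrees of freedom 1.65), with Benjamini-Hochberg adjustment over all features. The limit for a spot above blank was the median of the blank spots plus 2 robust SD. Columns of values not used number 0.

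The contigs, lists and tests were chosen with earlier results of these data known. Every contig of the keyword rule was described (S-adenosylmethionine decarboxylase is contig 113 and submergence induced protein 2A contig 117 in the files), and of the neighbouring lists the highest and lowest feature, with others marked. Scripts were tested on simulated slides. Contig sequences were not used here. Alternatives covered background, normalization, filters, the fit, the feature unit, the threshold, the ordinary test at the methods' p limit of 0.1 and each replicate. Leaving out each clone, a robust blank limit and the use of 2xSD mean intensities were chosen after seeing the data.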

Additional observations from a re-analysis of the deposited data

How the results depend on the processing

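Under each alternative 0 of the 3 to 6 contigs that kept values were called, with 0 to 3 of them at an unadjusted p under 0.05, and the decarboxylase, 2A and S-adenosylmethionine synthetase (contig 1651) stayed above 0 in all of theirs. Over all features limma called 10, 40% of them higher in yellow. The count was 18 without background correction, 59 with plain subtraction, 34 with offset 0, 6 with median centring (16.7% higher), 26 without normalization and 0 with scale normalization (735 at an unadjusted p under 0.05). It was 106 for spots above blank by 2 SD, 18 by 2 robust SD, 110 for 2xSD spots, 115 with their mean intensities, 68 with a dye term, 28 with trend and robust variances and 22 at an adjusted p under 0.1. It was 212 by the ordinary test, which called at an unadjusted p under 0.1 with 1.5-fold. It was 222 for single clones, 0 for the median over clones (668 at an unadjusted p under 0.05), 227 with the full files' contig numbers and 138 in the deposited table (76.8% higher). Leaving out a replicate gave 0 to 5 (362 to 917 at an unadjusted p under 0.05). The median of all features moved to 0.16 for 2xSD spots and 0.17 in the deposited table. The cause of these shifts was not tested.

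With a replicate left out the decarboxylase ran from 0.33 to 0.49, 2A from 0.37 to 0.68 and contig 1651 from 0.098 to 0.35. Of the neighbouring features, 1 was called, contig 3189, for spots above blank by 2 SD, 2xSD spots, the ordinary test, single clones and the full files' numbers, and 2, contigs 3189 and 625, in the deposited table.

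The sign turned for the following means. Contig 2115 was -0.29 with plain subtraction and became 0.035 without background correction, 0.0070 with median centring, 0.010 without normalization, 0.086 with a dye term, and ran from -0.26 to 0.20 with a replicate left out. Contig 451 became 0.025 with offset 0, 0.067 in the deposited table, and ran from -0.054 to 0.034 with a replicate left out. Contig 492 became -0.31 with plain subtraction. Contig 314 became -0.22 with plain subtraction, -0.23 with a dye term, -0.25 with mean 2xSD intensities, and ran from -0.35 to 0.76 with a replicate left out. Contig 2151 became 0.0045 with a dye term and ran from -0.031 to 0.015 with a replicate left out. Contig 2593 became 0.057 with median centring, 0.060 without normalization, 0.033 with a dye term, and ran from -0.15 to 0.090 with a replicate left out. With a replicate left out, contig 61 ran from -0.041 to 0.21, contig 783 from -0.090 to 0.14, contig 1241 from -0.25 to 0.17 and contig 3052 from -0.25 to 0.010, each turning without replicate 2. Contig 783 also became -0.10 with plain subtraction, -0.034 with offset 0 and -0.0033 with mean 2xSD intensities. Contig 1241 became 0.036 with median centring, 0.040 without normalization, 0.0020 with scale normalization and 0.19 in the deposited table.

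Precision is limited by 3 slides and by low signal over background for contigs 451, 1651 (replicate 3), 2115 (replicate 3) and 3409.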

Other observations

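Contig 314, the ethylene-insensitive-3-like contig, had 2 clones with one pattern. JBW035C11 gave log2 ratios of 0.69, -1.42 and 0.98 on replicates 1, 2 and 3, and JBW053H11 gave 0.37, -1.04 and 1.02. The mean of replicates 1 and 3 exceeded replicate 2 by 2.26 and 1.74, gaps greater in size than those of 99.6% and 99.0% of the clones measured on all slides. Both clones, like JBW081D12 of submergence induced protein 2A, were higher in yellow fruit where it carried Cy3 and lower where it carried Cy5. Contig 719, the other ethylene-insensitive-3-like contig, had 4 clones whose mean was 0.021, 0.0054 and 0.014. Among them JBW042D01 gave 0.20, -0.22 and 0.0043, a gap of 0.32 in the same direction. The other clones had gaps of the opposite sign, from -0.12 to -0.040. The part of the dye in these values was not tested.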
